A study of Mus musculus with 20 samples.

Results

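Collagen genes were read across hippocampal cultures in which NMDA receptors, the glutamate-gated channels that let calcium into neurons, were left unblocked or blocked for a day. The members were all genes whose symbol on the array has the form Col, a type number, the letter a and a chain number, control spots left out. There were 40 such genes of 27657 on the array, read by 78 probes, and 33 of them were among the 19336 genes tested. Mouse hippocampal neurons in dissociated culture, at day 21 in 6 well plates, received vehicle (the control group), 100 µM AP5, 100 nM NVP-AAM077 (NVP) or 1 µM Ro25-4891 (Ro25) for 24 h. AP5 competes with glutamate at NMDA receptors and NVP-AAM077 prefers receptors with the Grin2a product, while the preference of the compound written as Ro25-4891 is not stated because the code is unfamiliar. Each group held 5 arrays. The labels name no genotype, strain, sex or age of the animals and call the cells neurons.

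Each array set the RNA of 1 sample of cultured cells (Cy5, red) against a common mouse reference RNA (Cy3, green). Every value below is thus a log2 ratio of culture to reference, and a difference between groups is a difference of such ratios. A ratio says how a transcript stands relative to the reference, not how abundant it is beside another gene, and no level was set against another gene's. Between 58.6 and 69.3% of probes were detected in red on an array, with median red intensities of 142 to 185. Markers of neurons averaged 4.78 ± 0.13 and those of astrocytes 4.09 ± 0.29 (log2 ratio, SD, n = 5 control arrays), 10 of 10 in each list were well above background on every array, and markers of oligodendrocyte lineage cells averaged 2.72 ± 0.10. RNA of other brain cells was thus present beside that of neurons, and fewer cells of a type cannot be told apart from less RNA per cell. Whether arrays of 1 group stem from different cultures or animals is not given in the labels, so the spread behind each p-value is that among these samples and may be only technical. There were 7 slides and 3 scan days, and AP5 or NVP arrays never shared a slide with control arrays.

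Collagens are secreted or membrane-bound proteins whose alpha chains wind into a helix, and each type is named for the chains it is built from. Fibrillar collagens form the cables of connective tissue, type IV collagens the mesh of basement membranes, and type VI collagens beaded filaments, while the fibril-associated collagens with interrupted helices (FACIT) sit on fibrils or at tissue boundaries. In brain, fibrillar collagens belong mainly to the meninges and vessel walls, type IV collagens to the vascular basement membrane, and several FACIT and transmembrane collagens are made by neurons.

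Sequence just upstream of the start site was looked up for the genes whose values are described below, because type I and type III chains share fibrils in many tissues and their genes stood among the lowest p-values with Ro25. RefSeq promoters of assembly GRCm38.p6 were held for 32 of the 40 genes and are shown for the 2 of these fibril genes that had one, Col1a2 and Col3a1. The 250 bases before the start are printed, with capitals marking 3 short motifs that many promoters hold.
Col1a2 (chr6:4505368-4505617, plus strand): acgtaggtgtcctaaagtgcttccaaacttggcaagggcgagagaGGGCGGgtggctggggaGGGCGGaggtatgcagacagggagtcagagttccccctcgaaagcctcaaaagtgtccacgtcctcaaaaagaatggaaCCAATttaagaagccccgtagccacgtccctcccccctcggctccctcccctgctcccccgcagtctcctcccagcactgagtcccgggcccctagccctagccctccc
Col3a1 (chr1:45311288-45311537, plus strand): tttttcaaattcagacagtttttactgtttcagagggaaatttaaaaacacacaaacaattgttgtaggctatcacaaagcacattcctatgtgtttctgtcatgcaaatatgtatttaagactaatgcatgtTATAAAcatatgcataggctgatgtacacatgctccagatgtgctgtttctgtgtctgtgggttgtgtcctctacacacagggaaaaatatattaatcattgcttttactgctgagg
The Col1a2 window held GGGCGG at 205 and 188 bases and CCAAT at 109 bases before the start, and the Col3a1 window held TATAAA at 117 bases. Searched on both strands in windows of this length, GGGCGG lay in 18 of 32 collagen promoters (56.3%) against 35.4% of 27025 genes. CCAAT lay in 37.5% of the collagen promoters and 37.5% of all, TATAAA in 15.6% and 14.3%, and TGANTCA, in which N is any base, in 3.13% and 7.82%. These are matches of letters only, and none is shown to be a site.

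In control cultures most collagens stood below the reference on the brightest probe of each gene, and those of connective tissue stood lowest. Brightness was taken over both channels. Second probes of Col1a1, Col3a1 and Col5a1 gave -3.39, -1.16 and -0.60, closer to the reference than their brightest probes. Those of Col2a1, Col5a3 and Col6a3 gave 0.16, -0.07 and -0.04, in place of -3.91, -2.06 and -4.99. For Col5a3 and Col6a3 they were well above background in red on only 5 and 8 arrays. The second probe of Col4a6 lay the other way, at -3.01 in place of 0.46. Second probes of Col4a1 and Col6a2 gave -2.13 and -2.45, slightly farther from the reference. Of the 33 genes tested 21 had a mean ratio below 0 and 12 above, with a median of -1.41. All 3 beaded filament genes and 9 of 11 fibrillar genes were below 0. All 3 tested transmembrane genes and 5 of 7 tested FACIT genes were above it. The filter on red signal had left out Col17a1 (transmembrane) and Col12a1 and Col14a1 (FACIT). Their control ratios were -0.52, -0.77 and -0.25, with reference signal well above background on 20 of 20 arrays. The counts of both classes thus leave out genes that lay below the reference. The reference signal of Col19a1, Col9a1 and Col15a1 was well above background on only 1, 9 and 4 of 20 arrays, so the ratios of these 3 genes are the least firm.

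Among fibrillar genes the range ran from Col1a1 to Col11a1. Col1a1, which encodes the main chain of type I collagen, had ratios of -6.06, -6.12, -5.99, -5.82 and -6.02 in control arrays 1 to 5. Its partner Col1a2 averaged -5.13 ± 0.08, and Col3a1, which encodes type III collagen of vessel walls, -5.62 ± 0.18 (SD, n = 5). All 3 were well above background in red on 20 of 20 arrays, so the low ratios were measured in both channels. Col5a1 and Col5a2, chains that join type I fibrils, averaged -3.98 ± 0.11 and -4.28 ± 0.21. Col2a1, the main collagen of cartilage, averaged -3.91 ± 0.16. Col11a1, a minor chain of cartilage fibrils, lay at the other end with 1.75, 1.92, 1.21, 1.23 and 2.01, and Col24a1 averaged 0.59 ± 0.39.

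Basement membrane genes were spread less widely. Col4a1 and Col4a2, the chains found in nearly all basement membranes, averaged -2.05 ± 0.19 and -1.57 ± 0.12. Col4a4 and Col4a5, better known from the kidney filter, averaged -0.98 ± 0.13 and -1.58 ± 0.15, and Col4a6 was the only tested type IV gene above 0, at 0.46 ± 0.12. Col4a3 was well above background in red on 1 of 20 arrays and was not tested. The short-chain collagen Col8a1 averaged -5.75 ± 0.14 and Col7a1, the anchoring fibril collagen of skin, -1.34 ± 0.40. The type VI genes Col6a1, Col6a2 and Col6a3 averaged -3.34 ± 0.22, -2.14 ± 0.11 and -4.99 ± 0.17. Col18a1, whose product is cut to endostatin, averaged -4.04 ± 0.15, and Col15a1, the other multiplexin, 0.00 ± 0.29.

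On the brightest probe of each gene, the highest ratios were those of the FACIT genes Col22a1 and Col19a1. Col22a1, known from tissue junctions such as that of muscle and tendon, had control ratios of 3.87, 3.96, 3.58, 3.78 and 3.31, a mean 13.0-fold above the reference. Col19a1, which hippocampal neurons are known to make, averaged 2.23 ± 0.43. Second probes, well above background in red on 20 of 20 arrays, averaged 0.73 for Col22a1 and 0.78 for Col19a1. Both lay below Col11a1, which averaged 1.62. Col9a2 and Col9a3 averaged 0.60 ± 0.19 and 0.45 ± 0.18, and Col16a1, the lowest of the class, -2.92 ± 0.21. The transmembrane genes Col13a1, Col23a1 and Col25a1 averaged 0.70 ± 0.30, 0.54 ± 0.22 and 0.36 ± 0.05. Col25a1 encodes a collagen of neurons that collects in amyloid plaques, and its 5 control arrays lay between 0.29 and 0.41.

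**Figure D1:**
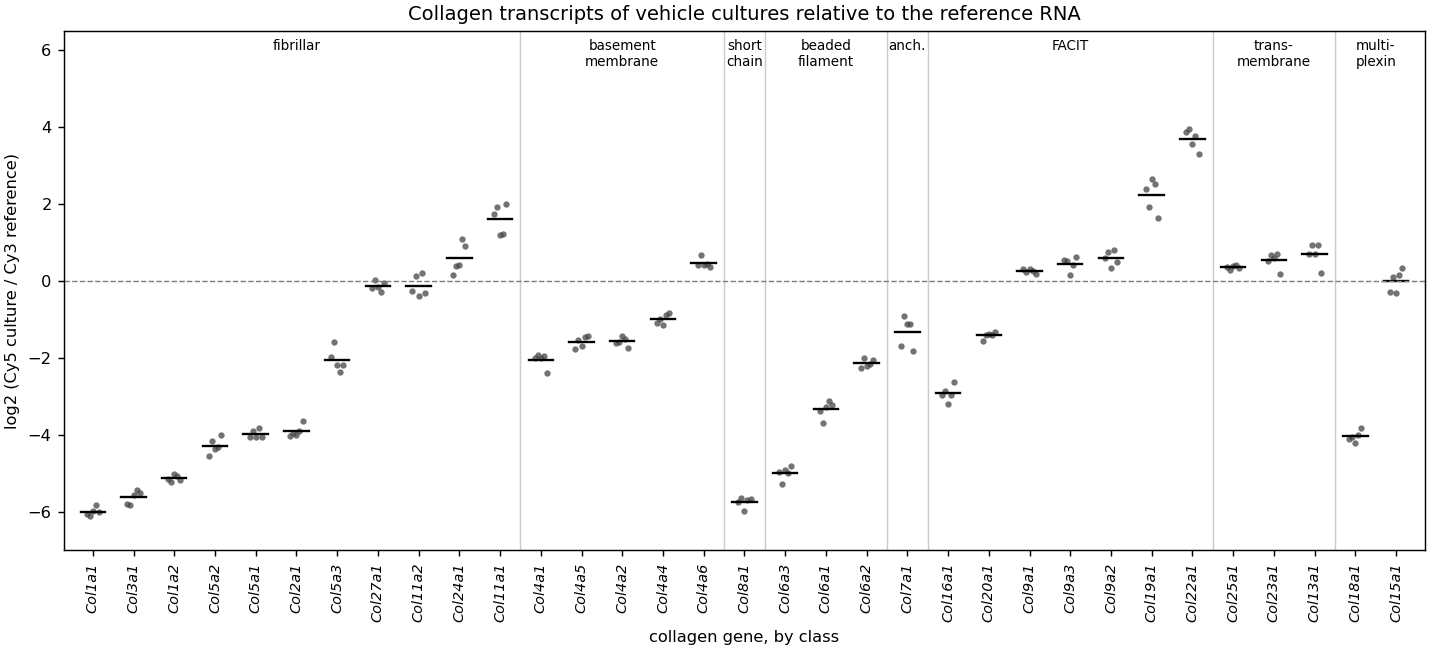
Log2 ratio of Cy5 (culture) to Cy3 (reference) in the 5 control arrays for the 33 collagen genes tested, grouped by class; points are arrays, black bars are means and the dashed line marks equality with the reference. Col1a1 at -6.00 and Col8a1 at -5.75 lie lowest and Col22a1 at 3.70 highest.

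The 7 genes not tested were Col4a3, Col8a2, Col10a1, Col12a1, Col14a1, Col17a1 and Col28a1. Their probes were well above background in red on 0 to 2 of 20 arrays, and a level below background gives only a bound. Of the 33 tested, 29 were well above background in red on every array. The weaker ones were Col15a1 on 7 arrays, Col9a1 on 16, and Col27a1 and Col4a5 on 18 each.

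The comparison of AP5 with control showed a large fall of 1 collagen gene and small differences elsewhere. Col22a1 was 3.85-fold lower with AP5. Col4a1 was 1.27-fold lower and Col1a2 1.19-fold lower. These 3 of 33 passed the threshold (limma, Benjamini-Hochberg adjusted p under 0.05 over all genes tested) and 0 passed in the other direction, which is 9.09% of the members against 6.12% of all genes called in either direction, 3.59% of them lower and 2.53% higher. At an unadjusted p under 0.05 the numbers were 7 lower and 0 higher, against 10.2% and 7.63% of all genes. The median difference of the members was -0.07, beside -0.01 for all genes, and 21 of 33 (63.6%) were negative, beside 53.5% of all genes. The median difference turned positive, to 0.02, with median centring in place of loess and in the arrays of the first scan day alone, and it was -0.01 without control array 5. The count of 3 was 2 without AP5 array 1, AP5 array 5 or control array 5, and 1 without any other single array.

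With AP5 the ratio of Col22a1 was 0.92, 2.13, 2.13, 1.94 and 1.64 in arrays 1 to 5, against 3.31 to 3.96 in control. It was 3.55, 3.81, 3.57, 3.72 and 3.27 with NVP and 3.40, 3.65, 3.78, 3.88 and 2.91 with Ro25. Every AP5 array lay below every array of the other groups, and NVP and Ro25 arrays overlapped with control. The AP5 difference was -1.95 (SE 0.21, 95% interval -2.38 to -1.51, limma adjusted p = 5.24e-06). Leaving out any 1 array of the 2 groups gave -2.04 to -1.74, with all 10 fits past the threshold. With slide as a block the difference was -2.78 (SE 0.41, limma adjusted p = 0.0143). That value runs through NVP and Ro25 arrays. Among the arrays of the first scan day it was -1.79.

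Col22a1 was read by a pair of probes 70.4 kb apart, and the fall was not of the same size in both. The brighter probe gave the values above. The dimmer probe, also well above background on 20 of 20 arrays, averaged 0.73 in control, with 0.81, 0.85, 0.52, 0.71 and 0.78 in the arrays. With AP5 it read 0.19, 0.44, 0.63, 0.68 and 0.65, which overlaps with control. Its difference was -0.21 (SE 0.10, limma adjusted p = 0.270 when it stood for the gene). With the mean of both probes the gene's difference was -1.08, past the threshold. Whether the probes read different transcripts was not tested.

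**Figure D2:**
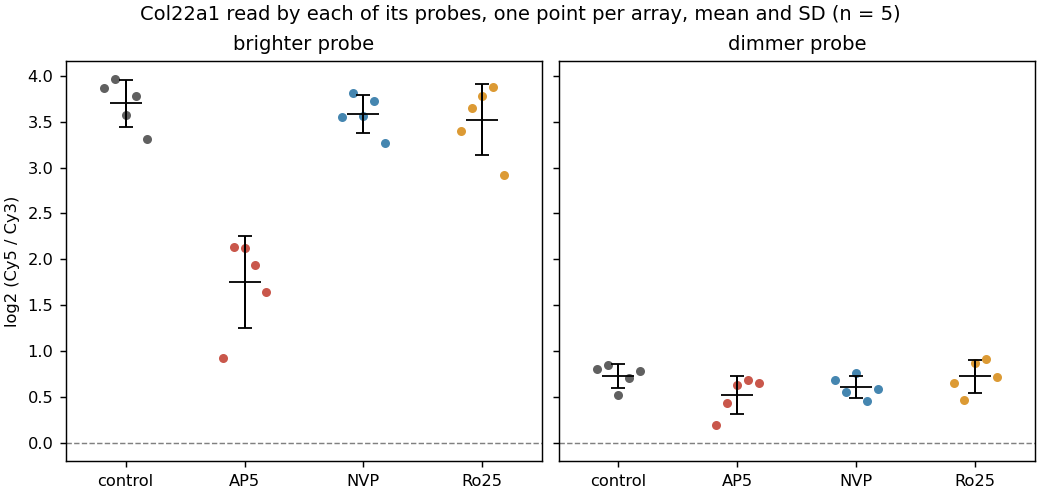
Log2 ratio to the reference of Col22a1 on its brighter and its dimmer probe in the 4 groups; points are arrays and bars the mean and SD (n = 5). On the brighter probe AP5 arrays lie at 0.92 to 2.13 and control arrays at 3.31 to 3.96, while on the dimmer probe the groups overlap.

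Col4a1 and Col4a2 encode the chains that join in the common type IV molecule, and in RefSeq their start sites lie 21 bases apart on opposite strands of chromosome 8. With AP5 Col4a1 read -2.38, -2.36, -2.42, -2.36 and -2.44. In control it read -2.01, -1.93, -1.99, -1.94 and -2.39. Control array 5 lay among the AP5 arrays and the other 4 control arrays above all of them. The difference was -0.34 (SE 0.09, 95% interval -0.54 to -0.15, limma adjusted p = 0.0322). It passed without AP5 array 1 (adjusted p = 0.0479) and without control array 5 (-0.43, adjusted p = 0.00392), and in the other 8 fits that left out an array it missed the threshold, with adjusted p up to 0.0938. With slide as a block it was -0.33 (limma adjusted p = 0.517), and on the first scan day -0.34 (0.105). With the scanner's processed signals it missed the threshold as well (-0.34, limma adjusted p = 0.0765). The gene's other probe gave -0.21.

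Col4a2 read -1.78, -1.67, -1.97, -1.78 and -1.91 with AP5, against -1.60, -1.59, -1.42, -1.50 and -1.74 in control. Only control array 5 lay within the AP5 range. The difference of -0.25 (SE 0.08, limma adjusted p = 0.0838) did not pass, and its other probe gave -0.22. The remaining type IV genes did not pass either. Col4a4 differed by -0.08, Col4a5 by 0.19 and Col4a6 by -0.18, with limma adjusted p of 0.754, 0.419 and 0.258. The sign of Col4a4 turned with median centring (0.00).

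Col1a2 read -5.49, -5.30, -5.52, -5.33 and -5.26 with AP5 and -5.16, -5.22, -5.02, -5.06 and -5.18 in control, and the groups did not overlap. The difference was -0.25 (SE 0.07, 95% interval -0.41 to -0.10, limma adjusted p = 0.0495), at the edge of the threshold. It stayed past the threshold without AP5 array 5 alone (adjusted p = 0.0424), and each of the other 9 fits that left out an array gave adjusted p of 0.0524 to 0.129. With slide as a block it was -0.45 (limma adjusted p = 0.196) and with median centring -0.10 (0.972). The number in the sample titles taken as a replicate block gave an adjusted p of 0.0662. Its partner Col1a1, which encodes the chain it joins, differed by -0.09 (limma adjusted p = 0.610).

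Col6a2, a chain of type VI collagen, gave a difference of -0.22 (SE 0.07, limma adjusted p = 0.0787) with groups that did not overlap, at -2.50 to -2.30 with AP5 and -2.27 to -2.01 in control. With the scanner's processed signals it passed (-0.31, limma adjusted p = 0.0472). With median centring it did not, at -0.14 (limma adjusted p = 0.969), nor in the authors' value table, at -0.01 (limma adjusted p = 0.983). The other kept probe of Col6a2, well above background in red on only 6 arrays, gave 0.11 (SE 0.18). In all, 3 members (Col22a1, Col1a2 and Col6a2) were lower on every AP5 array than on every control array, and 3.91% of all genes were. Its partners Col6a1 and Col6a3 differed by -0.02 and -0.05. The largest difference upwards was that of Col13a1, a transmembrane collagen of the neuromuscular junction, at 0.33 (SE 0.17, 95% interval -0.03 to 0.69, limma adjusted p = 0.340). It reached 0.97 (adjusted p = 0.0614) with the scanner's processed signals and -0.01 with slide as a block. By class, the median AP5 difference was -0.18 over 5 basement membrane genes, -0.08 over 11 fibrillar, -0.05 over 3 beaded filament, -0.04 over 7 FACIT and 0.05 over 3 transmembrane genes. Of the 11 fibrillar genes 7 were negative with AP5, 9 with NVP and 8 with Ro25, and of the 3 beaded filament genes 3 in each, where the 3 comparisons share their control arrays. For 27 of 33 members the AP5 difference had a 95% interval that lay within 0.5 of 0 on the log2 scale.

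**Figure D3:**
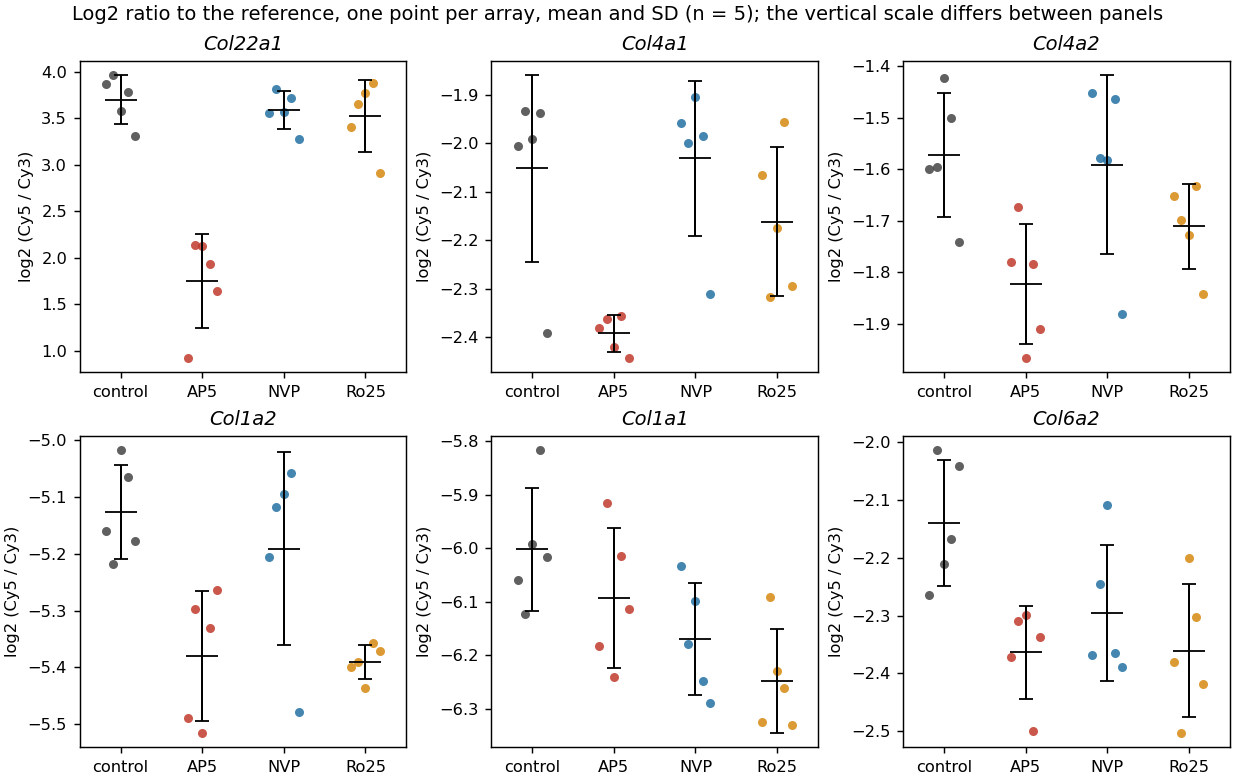
Log2 ratio to the reference of 6 collagen genes in the 4 groups; points are arrays, bars the mean and SD (n = 5), and each panel has its own scale. On its brighter probe Col22a1 separates AP5 from all other groups. For Col4a1 control array 5 (-2.39) and NVP array 5 (-2.31) lie apart from the rest of their groups.

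NVP against control moved no collagen gene past the threshold. With limma 0 of 33 passed, as did 0 of all genes tested (0%), and 4 members were lower and 0 higher at an unadjusted p under 0.05, beside 3.4% and 2.48% of all genes. The median difference was -0.06, beside -0.01 for all genes, and 25 of 33 (75.8%) were negative, beside 54.6%. The lowest p-values belonged to fibrillar genes. Col5a2 differed by -0.26 (SE 0.11), Col3a1 by -0.19 (SE 0.08) and Col1a1 by -0.17 (SE 0.08), with limma adjusted p of 0.805, 0.822 and 0.822. On each of the 3 genes all 5 NVP arrays lay below the control mean, and both groups overlapped. Col22a1 differed by -0.11 (95% interval -0.55 to 0.32), Col4a1 by 0.02 (-0.17 to 0.21), and Col4a2 by -0.02.

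Ro25 against control gave a like picture, with 0 of 33 past the threshold and 3 genes (0.0155%) called in all. At an unadjusted p under 0.05 there were 4 members lower and 0 higher, beside 2.95% and 1.39% of all genes. The median difference was -0.06, beside 0.00 for all genes, and 22 of 33 (66.7%) were negative, beside 49.3%. Col1a2 read -5.40, -5.39, -5.44, -5.36 and -5.37 with Ro25, below all control arrays. It was the only member whose groups did not overlap here, and 0.667% of all genes were lower on every Ro25 array. Its difference of -0.26 (SE 0.07, 95% interval -0.42 to -0.11, limma adjusted p = 0.686) did not pass.

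Col1a1 read -6.32, -6.09, -6.23, -6.26 and -6.33 with Ro25, and the difference was -0.25 (SE 0.08, limma adjusted p = 0.748). Col3a1 read -5.93, -5.81, -5.92, -5.85 and -5.85, a difference of -0.25 (SE 0.08, limma adjusted p = 0.815). Col6a2 differed by -0.22 (SE 0.07, limma adjusted p = 0.815). These 4 genes had the lowest p-values of the members, and 5 of 5 Ro25 arrays lay below the control mean on each. Within slide 4, which held both groups, the difference (3 Ro25 arrays, 1 control array) was -0.36 for Col1a2, -0.31 for Col1a1, -0.32 for Col3a1 and -0.16 for Col6a2. These 4 genes were picked by p-values that include the same arrays. Over the 33 members the median difference on that slide was -0.01, beside -0.06 over all arrays. Col22a1 differed by -0.18 (95% interval -0.61 to 0.26) and Col4a1 by -0.11 (-0.30 to 0.08).

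**Figure D4:**
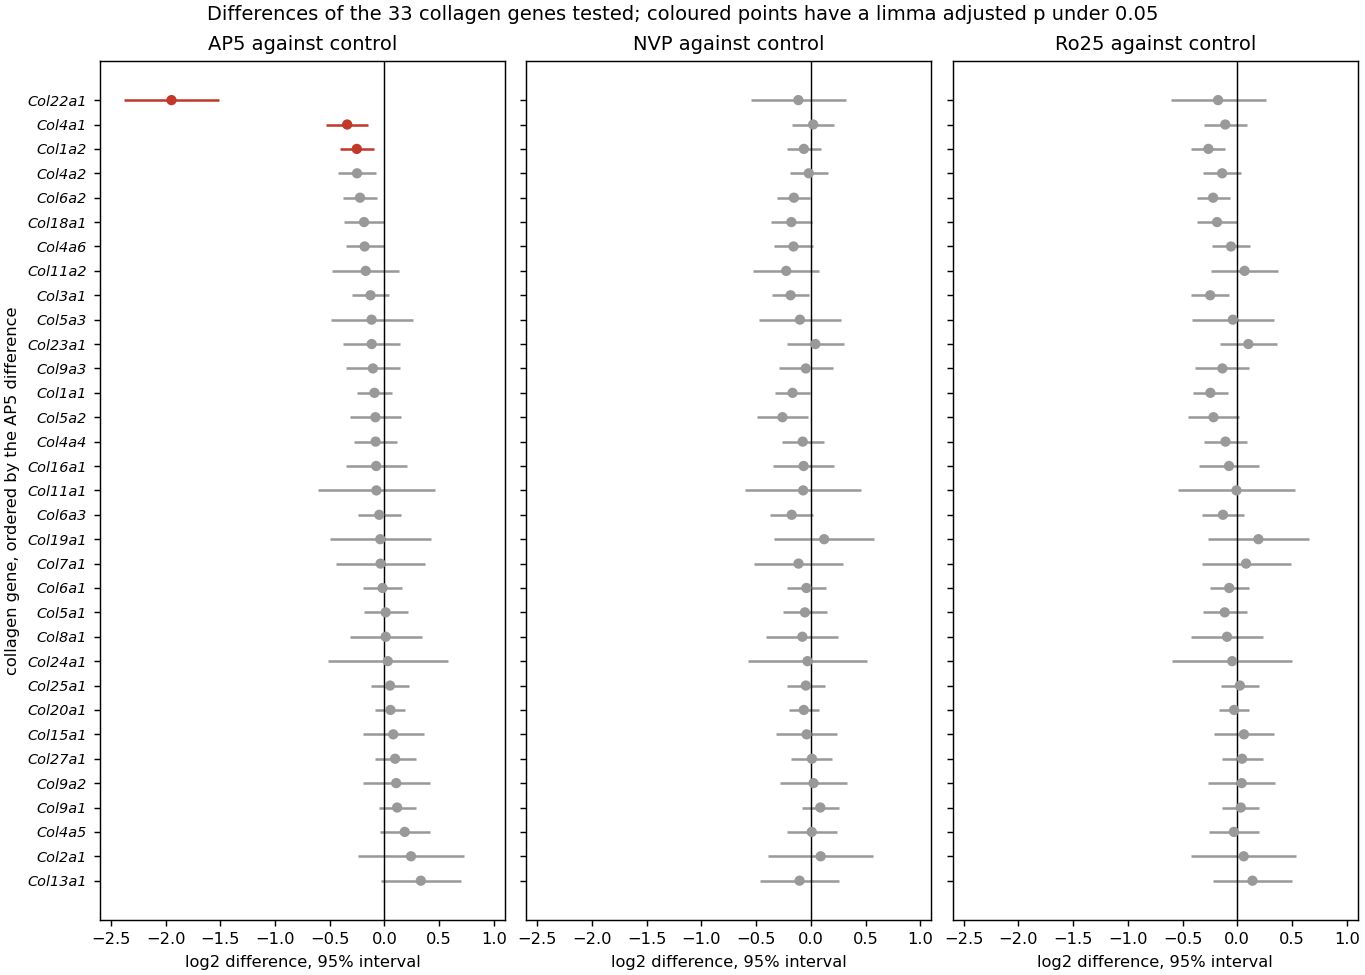
Log2 difference from control of the 33 collagen genes tested, with 95% interval, for AP5, NVP and Ro25, in the order of the AP5 difference; coloured points passed the limma threshold. Col22a1 (-1.95), Col4a1 (-0.34) and Col1a2 (-0.25) are coloured with AP5 and no gene with NVP or Ro25.

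The antagonists were also set against each other at their single doses, which differ, so the values compare these treatments and not the compounds at matched doses. Col22a1 was lower with AP5 than with NVP, by a log2 difference of -1.83 (SE 0.21, limma adjusted p = 1.39e-05). Against Ro25 it differed by -1.77 (SE 0.21, limma adjusted p = 2.25e-05). These values and those within slides are of the brighter probe. On the dimmer probe AP5 arrays lay at 0.19 to 0.68, NVP arrays at 0.46 to 0.76 and Ro25 arrays at 0.47 to 0.91. The groups thus overlapped on the dimmer probe. On slide 2, 1 AP5 array differed from 3 NVP arrays by -2.06, and on slide 6, 1 AP5 array from 1 Ro25 array by -2.73. The latter rests on AP5 array 1, without which the difference over all slides was -1.56 (limma adjusted p = 1.71e-05). Col4a1 was lower with AP5 than with NVP as well (-0.36, SE 0.09, limma adjusted p = 0.0241), while against Ro25 the difference of -0.23 (95% interval -0.43 to -0.04, adjusted p = 0.242) did not pass. The AP5 and NVP call of Col4a1 held in 4 of 10 fits that left out 1 array. On the gene's other probe AP5 arrays lay at -2.58 to -2.20 and NVP arrays at -2.35 to -2.14, which overlap. With AP5 2 members were lower and 0 higher than with NVP, beside 3.09% and 2.69% of all genes, and 1 was lower and 0 higher than with Ro25, beside 1.97% and 1.13%.

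Without NVP array 5 the count of members lower with AP5 than with NVP was 4, with Col4a2 (-0.30, limma adjusted p = 0.0175) and Col1a2 (-0.26, 0.0185) added. The share of all genes called without that array is not given here. Between NVP and Ro25 0 members passed, as did 0 of all genes, and at an unadjusted p under 0.05 limma gave 1 member higher and 0 lower, beside 2.79% and 3.12% of all genes. That member was Col1a2, higher with NVP by 0.20 (95% interval 0.04 to 0.36, limma adjusted p = 0.811). The comparisons share arrays, so their values are given side by side and not as independent results.

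Chains that join in 1 molecule were compared array by array, as deviations from the group mean over 20 arrays and 10 pairs of genes. Col4a1 and Col4a2 deviated together, with Pearson r = 0.74 (permutation p = 0.0011, adjusted over the pairs 0.011) and Spearman rho = 0.58 (permutation p = 0.0058, adjusted 0.058). Without the 2 arrays farthest from the median r was 0.50, on the 17 arrays of the first scan day 0.81, and over the 16 arrays not numbered 5 it was 0.25. The relation rests in large part on the arrays numbered 5, which lay lowest for both genes in the control and NVP groups. Arrays numbered 5 also correlated between groups over the genes tested (r = 0.57 to 0.76). The permutations took the arrays of a group as exchangeable, so their p-values may be too small. Col1a1 and Col1a2 gave r = 0.49 (permutation p = 0.048, adjusted 0.16) and Col6a1 and Col6a3 r = 0.57 (permutation p = 0.035, adjusted 0.16). The other 7 pairs gave r between -0.27 and 0.41, and none passed after adjustment.

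**Figure D5:**
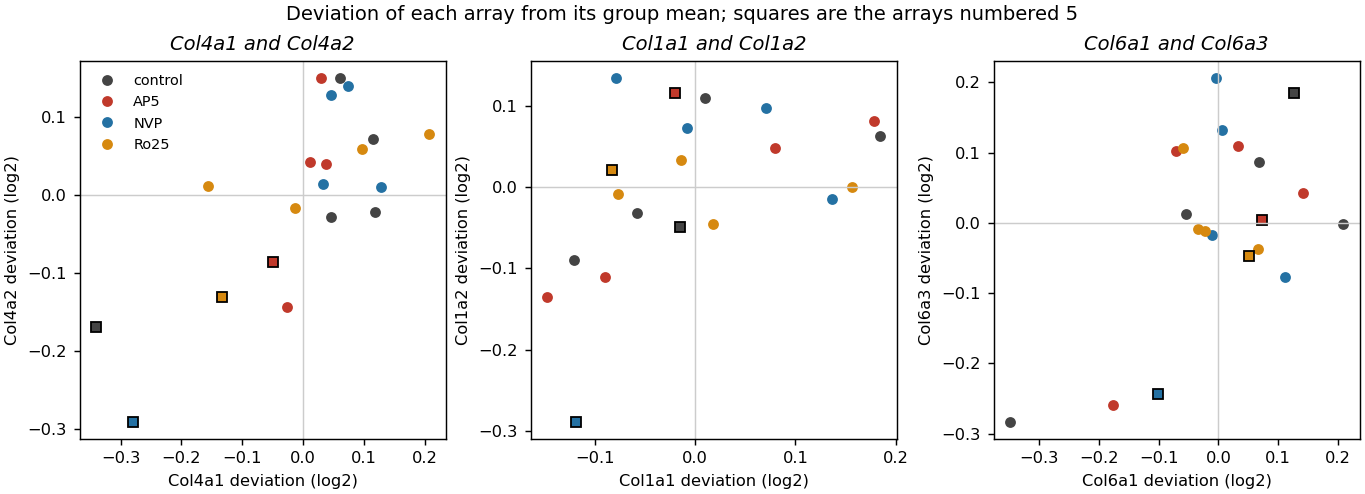
Deviation of each of 20 arrays from its group mean (log2) for Col4a1 against Col4a2, Col1a1 against Col1a2 and Col6a1 against Col6a3; colours are groups and squares the arrays numbered 5. The Col4a1 and Col4a2 points follow a line (r = 0.74) whose low end is held by arrays numbered 5.

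Several collagens were read by more than 1 probe, and the ratio to the reference depended on which. Of 17 tested genes with 2 or more kept probes, 9 had a pair whose control ratios differed by over 1. The pair of Col2a1 overlapped by 40 of 60 bases and gave -3.91 and 0.16. For Col4a6 a second probe 1.44 kb away gave -3.01 in place of 0.46, and for Col6a3 a second probe 35.5 kb away gave -0.04 in place of -4.99. By contrast the pairs of Col4a1 (-2.05 and -2.13) and Col4a2 (-1.57 and -1.56) gave nearly the same ratio. Repeat spots of 1 probe differed little, with a median SD within an array of 0.05 over 10 spots of Col1a1 and 0.17 over 10 spots of Col2a1.

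Genes that make, cut, bind or accompany collagen were read from lists written for this purpose. The counts with AP5 stand beside 6.12% of all genes called against control in either direction, 2.53% of them higher and 3.59% lower. With AP5, 2 of 29 tested genes of collagen biosynthesis were higher and 0 lower. They were Ppib, a prolyl isomerase of the collagen-modifying complex (0.23, SE 0.06, limma adjusted p = 0.0174), and Plod2, a lysyl hydroxylase (0.23, SE 0.06, limma adjusted p = 0.0201). Of 11 genes of collagen turnover and 8 collagen receptors 0 were called. Among 16 basement membrane partners Smoc2, a matricellular protein, was higher (0.71, SE 0.15, limma adjusted p = 0.00655) and Lamb3, a laminin chain, lower (-0.39, SE 0.11, limma adjusted p = 0.0366). The medians of the 4 lists lay between -0.04 and -0.01. With NVP and Ro25 0 genes of these lists were called.

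Markers of the cells that make collagen elsewhere were read beside these values. Over 11 of 11 fibroblast and meningeal markers the mean ratio was -1.86 ± 0.10 in control, -1.75 ± 0.07 with AP5, -1.94 ± 0.09 with NVP and -1.92 ± 0.08 with Ro25 (SD, n = 5). Their summed red intensity was 6437 to 9209 in control arrays, 7118 to 10511 with AP5, 6423 to 9224 with NVP and 6744 to 8932 with Ro25, and 0 of them were called against control. Fbln1, an extracellular glycoprotein, was higher with AP5 than with NVP (0.58, limma adjusted p = 0.0303). Over 8 of 10 mural markers the mean was -1.30 ± 0.06, -1.44 ± 0.12, -1.34 ± 0.02 and -1.43 ± 0.13 in the same order, again with 0 called. Over 7 of 10 endothelial markers the mean was -0.33 ± 0.08 in control and -0.29 ± 0.04 with AP5, and the median difference was -0.11. Between 3 and 7 of them were well above background on an array. Only Kdr was called with AP5 against control, and it was higher (0.73, limma adjusted p = 0.0247). Markers of dividing cells averaged -2.43 ± 0.12 in control and -2.86 ± 0.08 with AP5. Of these, 7 of 10 were lower with AP5, beside 3.59% of all genes. AP5 array 1 stood below the other AP5 arrays on the markers of astrocytes (mean ratio 3.00, others 4.09 to 4.68), neurons (4.11, others 4.72 to 4.87) and oligodendrocyte lineage cells (2.10, others 2.60 to 2.90). It also had the lowest Col22a1 ratio (0.92) and the lowest median deviation of the members from control (-0.21, others -0.10 to -0.01). Without it the AP5 difference from control was -1.74 for Col22a1, and the members' median was -0.04. Over 7 of 10 microglial markers the mean was -1.33 ± 0.08 in control and -1.33 ± 0.05 with AP5, and the median difference was -0.10. Only Csf1r among them was called with AP5 against control, and it was higher (0.46, limma adjusted p = 0.00279). Among astrocyte, neuron and oligodendrocyte lineage markers 0 were called. The part of the cells read by all these markers in the differences of the collagen genes was not tested.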

How the data were processed

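RNA of 20 samples was hybridised against 1 reference RNA on 2-colour arrays without dye swaps. Scanner files were deposited by the authors with the intensity of each spot (linear) and a log10 ratio of red to green, from Feature Extraction (10.7.3.1 in the file headers, 11.0 in the submitters' processing notes). A deposited value table holds 20674 probes as log2 ratios (20 columns used, 0 not used). Set against the scanner's ratio over 11117 probes, its slopes were 0.834 to 0.858, so that it is log2 and runs the same way. Column medians lay at 0.0302 to 0.0626, and the centring is unknown.

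Of 45018 spots 43379 were not controls. Outlier spots (86 to 172 an array) were left out, and 0 were saturated. The steps were normexp background correction (offset 50), loess within arrays (limma 3.58.1, R 4.3.3) and averaging of a probe's spots. Kept were 28496 probes detected above background in red on 5 arrays or more, and the brightest stood for its gene. Group means were fitted (lmFit, eBayes; residual df 16, prior df 3.67), and 6 comparisons were made by two-sided tests at a Benjamini-Hochberg adjusted p of 0.05. Partner chains were compared with permutation tests (100000 resamples). Tested on simulated arrays for AP5 against control (19336 genes), the fit recovered 86% of 100 genes changed 1.5-fold and 94% of 100 changed 2-fold. Of its 191 calls 5.76% were false. The simulated noise was independent between genes and arrays, with no effect of slide or scan day, and no change under 1.5-fold was simulated. These rates may thus not hold for the real arrays or for differences as small as those of Col4a1 and Col1a2.

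Slide and scan day came from the headers. Earlier results of these data were known when members, classes, lists and the naming rule were chosen. The rule took called members, the 3 of lowest p against control, the highest and lowest of each class and the type IV pairs, and up to 4 called genes of each list; other members named were chosen after their values were seen. Only promoter sequences were used here. Array number and signal over background limit precision.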

Additional observations from a re-analysis of the deposited data

Results flagged for a closer look

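In 48 sets of 5 arrays (12 genes in 4 groups) 4 single arrays stood apart from the rest of their group by Dixon's criterion, where chance marks about 1 set in 20. Col4a1 read -2.39 in control array 5, with the other control arrays at -2.01 to -1.93. In NVP array 5 it read -2.31, with the highest of the others at -1.90. Col13a1 read 0.15 in NVP array 5, with the others at 0.63 to 0.81. Col4a6 read 0.67 in control array 2, with the others at 0.38 to 0.44. Without control array 5 the Col4a1 difference with AP5 was -0.43 in place of -0.34, and without NVP array 5 the difference between AP5 and NVP was -0.43 in place of -0.36.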

How the results depend on the processing

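The fall of Col22a1 with AP5 kept its direction and its side of the threshold under the other processing choices tried except the dimmer probe (-0.21); its probes are not in the authors' value table, which holds 27 of the 33 members and also lacks Col4a1. The count of members lower with AP5 than control, 3, was 1 with median centring, slide as a fixed block, the first scan day or only the 2 groups fitted, 0 in the value table, and 1 to 2 without 1 array. Over all genes the 695 lower calls became 99, 35, 461 and 474 in the first 4 of these and 657 in the value table, so the members' count fell beside a fall over all genes in the first 4. With the scanner's processed signals the count stayed at 3, with Col6a2 (-0.31, limma adjusted p = 0.0472) added and Col4a1 (0.0765) lost. The count lower with AP5 than NVP was 2. It was 1 with the scanner's processed signals, median centring, the mean of a gene's probes, slide as a fixed block or the first scan day. Over all genes the 598 lower calls became 533, 84, 575, 74 and 296 in the same order. The members' count was 0 in the value table, with 523 lower calls over all genes, and 1 to 4 without 1 array. Calls over all genes without 1 array are not given here. The count lower with AP5 than Ro25 was 0 in the value table, where 1 member, Col13a1 (0.55, limma adjusted p = 0.0263), was higher with AP5 than NVP. The median AP5 difference was 0.019 with median centring and 0.024 on the first scan day. The signs of differences that had not passed turned for Col4a4 with AP5 (0.0021 with median centring, 0.26 with slide as a block), Col13a1 with AP5 (-0.0099 with slide as a block), Col3a1 with Ro25 (0.15 in the value table, where its dimmer probe stands for it), Col1a2 between AP5 and NVP (0.017 with median centring) and Col4a1 with NVP (-0.036 with the mean of its probes; -0.064 to 0.090 without 1 array). Over all genes 41.3% of AP5 calls were higher, 52.1% with processed signals, 52.1% in the value table and 14.6% with slide as a block. The numbers in the titles were not taken to pair the samples, since same-numbered arrays correlated above 0.1 in every pair of groups only for number 5 (r = 0.57 to 0.76); number 1 reached 0.51 between NVP and Ro25 and -0.35 between NVP and control. As a replicate block they left the AP5 count at 3, with Col4a2 added (adjusted p = 0.0327) and Col1a2 lost (0.0662). Slide as a random block (consensus correlation -0.04) left it at 3.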
